A study of Mus musculus with 70 samples.

Results

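The hippocampus of APP23 mice with free access to food was compared between the middle of the dark phase and the middle of the light phase. The comparison holds 7 of the 70 libraries of the series, chosen by the genotype, feeding and time of sacrifice in their labels, with 3 mice killed at Zeitgeber time (ZT) 18 and 4 killed at ZT6. APP23 mice (TG) carry human APP with a familial Alzheimer mutation under the Thy1 promoter, which drives it in neurons, on a B6 background. Lights came on at ZT0 and went off at ZT12, so the ZT18 tissue was collected in darkness and the ZT6 tissue in light. All 7 mice had continued on ad libitum feeding (ALF), were housed singly, and were 10 to 13 months old, an age range given for the whole study. Sex was about balanced over the study, but no animal's sex is given. Each library is polyadenylated RNA of the hippocampus of 1 mouse, and values are normalized counts per gene. Other groups are used only for context. They are 7 TG mice under time-restricted feeding (TRF, food from ZT15 to ZT21; 3 at ZT18 and 4 at ZT6), 7 non-transgenic littermates (NTG; 4 at ZT18 and 3 at ZT6, both feedings), and 12 TG mice on ALF killed at ZT12 or ZT0 (6 each).

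Secreted and membrane proteins are folded in the endoplasmic reticulum (ER), where the chaperone BiP, product of Hspa5, binds unfolded chains and also holds the stress sensors ATF6, IRE1 and PERK inactive. When unfolded protein builds up, IRE1 splices Xbp1 mRNA and ATF6 is cut, and the resulting factors switch on chaperone genes, partly through a promoter motif named the ER stress response element (ERSE). The circadian clock is a separate loop, in which CLOCK and BMAL1 bind E-box motifs and switch on the Per and Cry genes, whose products repress them. In mouse brain, transcripts also follow time of day through sleep and wake, body temperature, feeding and glucocorticoids, and mice are mostly active in the dark.

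Library depth, counted in reads of the listed genes, was 38.2 to 43.4 M at ZT18 and 33.6 to 42.9 M at ZT6. Thy1, whose promoter drives the transgene, lay between 101986 and 144853 normalized counts in the 7 mice, against 14727 to 29068 in 32 NTG mice, so every genotype label held. Mouse App had 51723, 53107 and 52823 normalized counts at ZT18 and 52304, 54818, 58729 and 58241 at ZT6 (log2 fold change −0.09 ± 0.11 SE, limma adjusted p = 0.933). Markers of hippocampal neurons were present in all 7 mice, with Prox1 of granule cells at 1142 to 1617 normalized counts at ZT18 and 1402 to 1718 at ZT6. Libraries did differ in neighbouring tissue. The summed level of 20 choroid plexus genes, from the epithelium that makes cerebrospinal fluid, was 251430 to 270573 at ZT18, but 280642, 214947, 103057 and 12035 at ZT6, the lowest being the mouse labelled TG_ALF_6_319. All 20 had a positive log2 fold change (median 1.45), none passed the test, and none was at 0 in any mouse. In bulk tissue, fewer cells of a type and less RNA per cell cannot be told apart.

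Of 14260 genes tested, 15 passed at ZT18 against ZT6 (0.105%, limma, Benjamini-Hochberg adjusted p under 0.05), 10 higher (0.0701%) and 5 lower (0.0351%). Those that rose included 3 genes of the ER folding list (Hspa5, Sdf2l1 and the factor Xbp1), 1 cytosolic heat shock gene and the clock repressor Cry1. Those that fell included enzymes of lipid metabolism and a zinc exporter. The log2 fold changes ranged in size from 0.45 for Dgcr8 and Dnajb1 to 1.58 for Pla2g4e. Without adjustment 1068 genes had p under 0.05 (7.49%). In 1630 genes (11.4%) the 3 ZT18 mice and the 4 ZT6 mice did not overlap, and all 15 genes were among these. The last genes inside the threshold were Sdf2l1 and Dnajb1 (adjusted p = 0.0431 each), and the first outside were Mical2.1 (log2 fold change 1.16 ± 0.27, adjusted p = 0.0544) and Htr1a, a serotonin receptor (0.54 ± 0.13, 0.0565). Single mice weighed on this count. It was 3, 2 and 7 genes without the ZT18 mice TG_ALF_18_303, TG_ALF_18_314 and TG_ALF_18_329, and 28, 8, 10 and 8 without the ZT6 mice TG_ALF_6_304, TG_ALF_6_310, TG_ALF_6_319 and TG_ALF_6_332. Hspa5 and Pla2g4e passed in all 7 of these fits, and the other 13 genes kept their direction but lost the call in at least 2 of them.

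**Figure D1:**
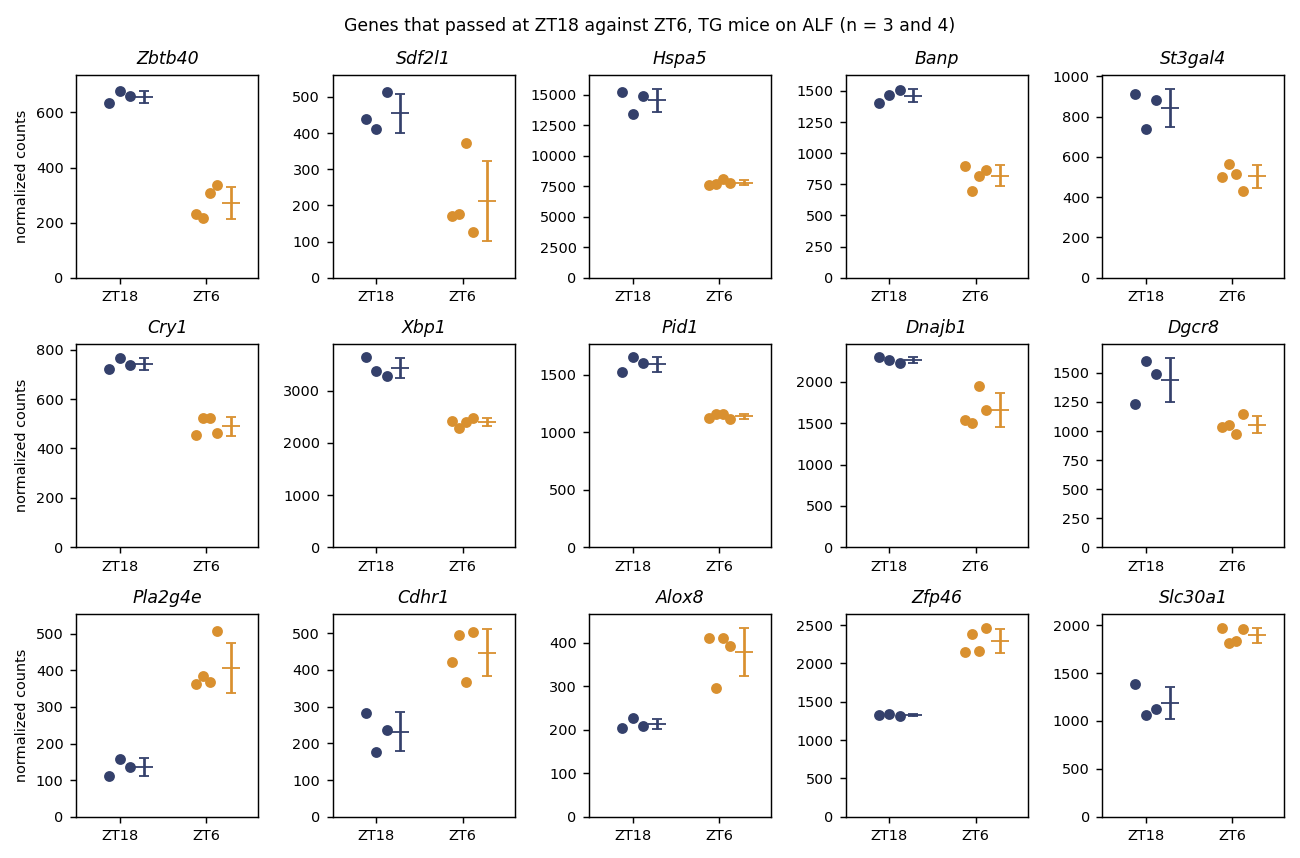
Normalized counts of the 15 genes that passed, for each TG mouse on ALF, with ZT18 (n = 3) at the left and ZT6 (n = 4) at the right of each panel. Dots are mice, and bars give the mean and SD. In every panel the mice of the 2 times do not overlap, with 10 genes higher at ZT18 and 5 lower.

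Hspa5, the BiP chaperone, changed most clearly among the ER genes. It had 15199, 13443 and 14905 normalized counts in the ZT18 mice, against 7585, 7680, 8084 and 7797 in the ZT6 mice. The lowest ZT18 mouse was thus well above the highest ZT6 mouse, and the ratio of the means was 1.86 (log2 fold change 0.90 ± 0.15 SE, adjusted p = 0.00146, limma). Hspa5 lies on chromosome 2 (34772090 to 34776529, GRCm38.p6). Xbp1, the factor activated by IRE1, had 3644, 3373 and 3281 at ZT18 and 2416, 2295, 2396 and 2475 at ZT6. These groups did not overlap either (0.52 ± 0.11, adjusted p = 0.0135). The call was lost in 5 of the 7 fits with a mouse left out (adjusted p up to 0.217). The values count all Xbp1 reads and do not separate its spliced form. Sdf2l1, an ER protein that works with BiP, had 437, 412 and 514 at ZT18 and 172, 176, 374 and 127.1 at ZT6 (1.21 ± 0.28, adjusted p = 0.0431). The ZT6 mouse with 374 was TG_ALF_6_304, which also had the highest choroid plexus sum. With the choroid plexus level as a covariate the Sdf2l1 value was 1.17 (adjusted p = 0.0563), and without TG_ALF_6_304 it was 1.53 (adjusted p = 0.00331). Leaving out any other of the 7 mice ended the call (adjusted p up to 0.286).

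Most other genes of the ER folding list had positive values outside the threshold, and 4 had negative values. Besides chaperones the list holds the factor Xbp1, the sensor Atf6 and degradation genes such as Edem1. Of 26 measured members of the list, 3 rose, none fell and 22 had a positive value, with a median log2 fold change of 0.20 against 0.003 over all genes. With 1 of the 7 mice left out, 1 to 5 members rose. In 12 of the 26 the ZT18 mice were all above the ZT6 mice and in none were they all below (5.76% and 5.67% of all genes). Pdia6, a disulfide isomerase, had 4661, 4220 and 4939 normalized counts at ZT18 and 2818, 3264, 3880 and 3086 at ZT6 (0.51 ± 0.12, adjusted p = 0.0565). Manf, a secreted ER stress protein, had 2088, 1679 and 1766 at ZT18 and 917, 1024, 1440 and 1066 at ZT6 (0.74 ± 0.19, adjusted p = 0.0893). In both genes the groups were apart and TG_ALF_6_304 was the highest of the ZT6 mice. Creld2 (0.81 ± 0.22, adjusted p = 0.113), the isomerase Pdia4 (0.73 ± 0.20, 0.136) and the calcium-binding chaperone calreticulin, Calr (0.40 ± 0.12, 0.183), also did not overlap. The members at the other end were near 0. Canx, the membrane-bound partner of calreticulin, had −0.02 ± 0.14, the isomerase P4hb 0.02 ± 0.11, Dnajb9, a co-chaperone induced by XBP1, 0.02 ± 0.09, the sensor Atf6 −0.09 ± 0.13 and Edem1, which directs misfolded glycoproteins to degradation, −0.07 ± 0.11. The 20 measured targets of ATF4, the factor downstream of PERK, had a median of 0.02 with none past the threshold and 1 at unadjusted p under 0.05. Their lowest adjusted p was that of Ddit3, the factor CHOP (0.33, limma adjusted p = 0.640).

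**Figure D2:**
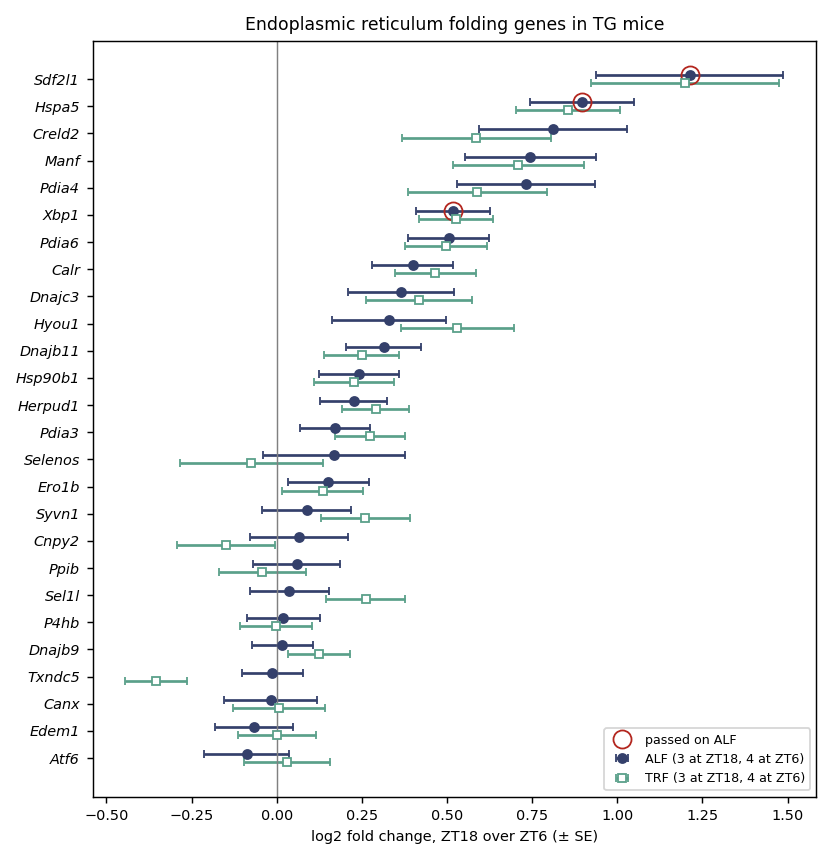
Log2 fold change at ZT18 over ZT6 (± SE) of the 26 genes of the ER folding list, ordered by their value on ALF. Filled circles are TG mice on ALF and open squares other TG mice on TRF, each with 3 mice at ZT18 and 4 at ZT6; red rings mark the 3 genes that passed on ALF, Sdf2l1, Hspa5 and Xbp1.

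The promoters of 4 of the genes described here are shown for the motifs they hold, as RefSeq sequence (GRCm38.p6) of the 250 bases before the annotated start, written 5′ to 3′ along the gene. Capitals mark ERSE in the first 3, searched on both strands as CCAAT and CCACG with 9 bases of any kind between them, and the E-box CACGTG in the last. The windows are chr2:34771840-34772089 (plus strand) for Hspa5, chr12:17266339-17266588 (plus) for Pdia6, chr10:86705445-86705694 (minus) for Hsp90b1 and chr10:85185055-85185304 (minus) for Cry1.
Hspa5: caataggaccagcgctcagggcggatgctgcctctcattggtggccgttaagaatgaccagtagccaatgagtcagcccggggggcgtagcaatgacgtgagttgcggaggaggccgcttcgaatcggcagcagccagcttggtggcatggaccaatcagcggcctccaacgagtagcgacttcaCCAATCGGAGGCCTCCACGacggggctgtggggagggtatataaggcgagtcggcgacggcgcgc
Pdia6: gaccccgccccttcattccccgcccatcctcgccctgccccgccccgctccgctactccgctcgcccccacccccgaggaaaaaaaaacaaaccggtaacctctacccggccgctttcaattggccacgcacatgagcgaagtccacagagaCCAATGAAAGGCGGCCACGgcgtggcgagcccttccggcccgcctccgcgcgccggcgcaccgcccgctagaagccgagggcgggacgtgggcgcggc
Hsp90b1: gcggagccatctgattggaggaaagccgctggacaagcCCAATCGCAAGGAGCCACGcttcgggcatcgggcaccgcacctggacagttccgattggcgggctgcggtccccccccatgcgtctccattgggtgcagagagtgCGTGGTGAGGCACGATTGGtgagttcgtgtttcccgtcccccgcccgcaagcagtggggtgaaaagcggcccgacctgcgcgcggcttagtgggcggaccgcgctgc
Cry1: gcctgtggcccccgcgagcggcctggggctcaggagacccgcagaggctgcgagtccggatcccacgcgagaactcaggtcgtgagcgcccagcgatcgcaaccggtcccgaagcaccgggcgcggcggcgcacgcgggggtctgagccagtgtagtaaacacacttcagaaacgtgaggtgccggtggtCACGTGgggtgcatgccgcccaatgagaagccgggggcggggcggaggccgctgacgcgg
Hspa5 and Pdia6 hold 1 exact ERSE match each, and Hsp90b1, the ER form of HSP90, holds 2, the second on the other strand. Inexact copies of the motif were not searched. Windows that run from 250 bases before to 50 after the start held ERSE in 17 of 11019 listed genes (0.154%). Of these, 9 belong to the ER folding list, among 23 members with a window, and were Hspa5, Pdia6, Hsp90b1, Calr, Canx, Creld2, Dnajc3, Ero1b and Syvn1. Their median log2 fold change was 0.37, and 6 of the 9 had all ZT18 mice above all ZT6 mice (5.76% of all genes). The 8 genes with the motif outside the list had a median of −0.05 and no such gene. The 14 list members whose windows do not hold these letters had a median of 0.12, with 4 such genes, Xbp1 and Sdf2l1 among them. A match describes letters in this window only. Canx, with the motif, was at −0.02, and Hsp90b1, with 2 matches, had 14331, 13770 and 14437 normalized counts at ZT18 and 13238, 11839, 11396 and 11576 at ZT6 (0.24 ± 0.12, adjusted p = 0.653).

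Genes of the cytosolic heat shock list were also mostly higher at ZT18, with 1 past the threshold. The list also holds Hspd1 and Hspe1, whose products are mitochondrial chaperonins. Of 30 measured members, 1 rose and none fell, 27 values were positive, and the median was 0.22. In 13 of them all ZT18 mice were above all ZT6 mice, and in none below (5.76% and 5.67% of all genes). The gene that rose was Dnajb1, the HSP40 that partners HSP70 and a standard target of heat shock factor 1. It had 2299, 2268 and 2232 normalized counts at ZT18 and 1539, 1505, 1950 and 1659 at ZT6 (0.45 ± 0.10, adjusted p = 0.0431). Its call was lost in 6 of 7 fits with a mouse left out (adjusted p up to 0.270) and with the choroid plexus covariate (0.0563). Outside the threshold were Chordc1, an HSP90 co-chaperone (0.53 ± 0.13, adjusted p = 0.0760), the HSP90-binding immunophilin Fkbp4 (0.47 ± 0.12, 0.108), and Dnaja4 (0.33 ± 0.09, 0.119). The small heat shock gene Hspb1 had 458, 361 and 306.9 at ZT18 and 133, 153, 240 and 176 at ZT6 (1.11 ± 0.32, adjusted p = 0.160). The inducible HSP70 gene Hspa1b had 754, 567 and 585 at ZT18 and 367, 431, 449 and 482 at ZT6 (0.55 ± 0.18, adjusted p = 0.266), a value that is uncertain because Hspa1a is nearly identical. The abundant members Hspa8 (0.08 ± 0.13), Hsp90aa1 (−0.02 ± 0.15) and Hsp90ab1 (−0.03 ± 0.10) lay within their SE of 0. The heat shock element was searched on both strands as GAA, TTC and GAA with 2 bases between them. It was in 0.572% of listed genes with a window and in 4 of the 23 list members with one. These were Chordc1, Hspd1, Hspe1 and Hsph1. The windows of Hspd1 and Hspe1 overlap on opposite strands and hold the same stretch, so their matches are not separate sites. The windows of Dnajb1 held no match.

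Among clock genes, Cry1 rose at ZT18. Cry1 encodes a cryptochrome that represses CLOCK and BMAL1. It had 722, 768 and 737 normalized counts at ZT18 and 454, 525, 523 and 461 at ZT6, with no overlap (0.60 ± 0.13, adjusted p = 0.0204). Its call was lost in 5 of the 7 fits that left out a mouse (adjusted p up to 0.135). Its promoter, printed above, holds the E-box, which 11.5% of listed genes with a window hold. Per2 and Per3, period genes of the same repressor arm, had no overlap either. Per2 had 1562, 1499 and 1491 at ZT18 and 840, 878, 1015 and 938 at ZT6 (0.73 ± 0.22, adjusted p = 0.187). Per3 had 1991, 2611 and 2580 at ZT18 and 1430, 1672, 1764 and 1854 at ZT6 (0.51 ± 0.16, adjusted p = 0.243). Nr1d1, the repressor REV-ERB alpha, lay the other way, with 5717, 6003 and 5456 at ZT18 and 7456, 7664, 7501 and 7415 at ZT6 (−0.39 ± 0.10, adjusted p = 0.101). Per1 (−0.16 ± 0.18), Cry2 (−0.07 ± 0.12) and Ciart (−0.19 ± 0.20) overlapped between the times. Over the 14 repressors, 9 values were positive and the median was 0.04. In 4 of the 14 all ZT18 mice were above all ZT6 mice and in 1 below (5.76% and 5.67% of all genes).

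The activating arm and the output factors gave no call. Of 6 activators, 3 had a positive and 3 a negative value (median −0.03). In 1 all ZT18 mice were above all ZT6 mice and in 1, Bmal1, below (5.76% and 5.67% of all genes). Bmal1 had 1021, 1220 and 1098 normalized counts at ZT18 and 1352, 1293, 1274 and 1411 at ZT6 (−0.26 ± 0.12, adjusted p = 0.575). The groups of Clock overlapped (−0.11 ± 0.19). Among the PAR bZIP factors, which carry the clock signal to D-box genes, Tef had 15804, 16917 and 15120 at ZT18 and 10636, 13018, 12456 and 12777 at ZT6 (0.39 ± 0.11, adjusted p = 0.129). Hlf had 0.28 ± 0.14 and Dbp −0.10 ± 0.20. The D-box TTATGTAA was in 0.726% of listed genes with a window and, of the 17 clock genes with one, in Per3.

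**Figure D3:**
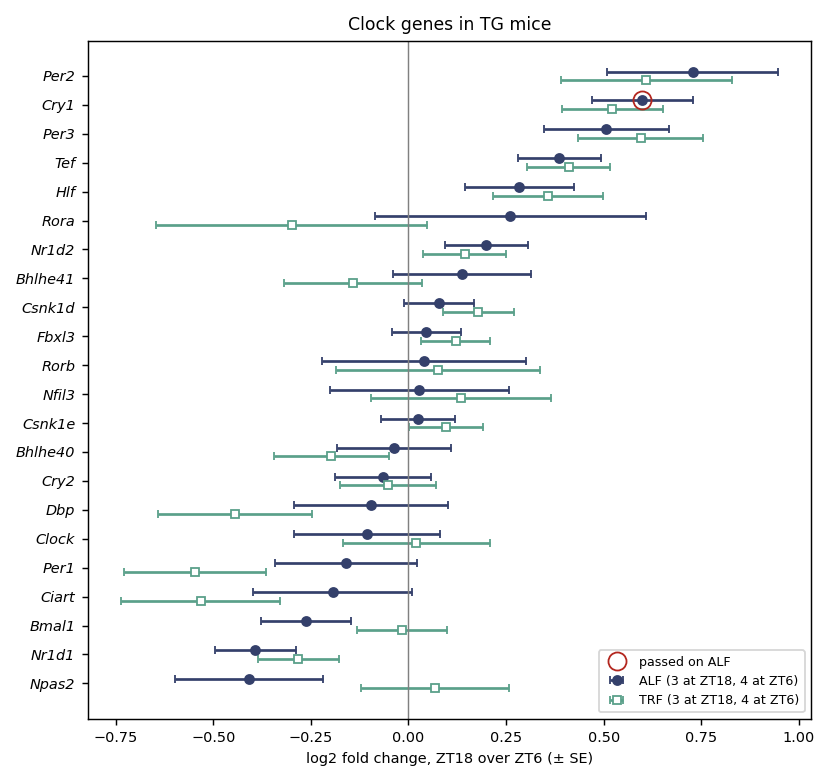
Log2 fold change at ZT18 over ZT6 (± SE) of 22 clock genes, ordered by their value on ALF. Filled circles are TG mice on ALF and open squares TG mice on TRF; Cry1 is the gene that passed on ALF (red ring), with Per2 above it and Npas2, Nr1d1 and Bmal1 at the lower end.

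The remaining genes that rose belong to no list used here. Zbtb40, a zinc finger protein gene, had 633, 678 and 659 normalized counts at ZT18 and 230, 216, 306.7 and 335 at ZT6, a ratio of means of 2.42 (1.29 ± 0.24, adjusted p = 0.00610). Banp, which encodes a nuclear protein that binds unmethylated CG-rich promoter motifs, had 1406, 1466 and 1511 at ZT18 and 896, 699, 816 and 865 at ZT6 (0.84 ± 0.16, adjusted p = 0.00742). St3gal4, a sialyltransferase that caps glycans, had 910, 736 and 880 at ZT18 and 500, 566, 512 and 431 at ZT6 (0.74 ± 0.14, adjusted p = 0.00637). In each of these genes the lowest ZT18 mouse stood clear of the highest ZT6 mouse. Pid1, whose product binds the lipoprotein receptor LRP1 and lowers insulin signalling in fat cells, had 1525, 1653 and 1600 at ZT18 and 1121, 1157, 1162 and 1118 at ZT6 (0.48 ± 0.10, adjusted p = 0.0135). Dgcr8, the RNA-binding partner of DROSHA in microRNA processing, had 1234, 1604 and 1490 at ZT18 and 1034, 1051, 977 and 1150 at ZT6 (0.45 ± 0.10, adjusted p = 0.0204). The groups of Dgcr8 came closest, with 1234 in the lowest ZT18 mouse and 1150 in the highest ZT6 mouse.

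Pla2g4e had the largest change of the 15 genes and the smallest adjusted p. It encodes cytosolic phospholipase A2 epsilon, an acyltransferase that makes N-acyl phosphatidylethanolamines, the precursors of anandamide. It had 111, 159 and 137 normalized counts at ZT18 and 364, 384, 368 and 508 at ZT6. Its level at ZT18 was 0.33 of that at ZT6, and the groups lay far apart (−1.58 ± 0.23, adjusted p = 9.45e-05, limma). Alox8, a lipoxygenase, had 204.4, 226 and 209 at ZT18 and 412, 296, 411 and 393 at ZT6 (−0.81 ± 0.17, adjusted p = 0.0135). Slc30a1, the zinc exporter ZnT1 of the cell membrane, had 1383, 1067 and 1126 at ZT18 and 1965, 1811, 1837 and 1957 at ZT6 (−0.67 ± 0.13, adjusted p = 0.00637). Both fell with no overlap between the times. Zfp46, a zinc finger protein gene, had 1331, 1345 and 1315 at ZT18 and 2154, 2379, 2163 and 2465 at ZT6 (−0.78 ± 0.16, adjusted p = 0.0135). Cdhr1, a cadherin best known from photoreceptors, had 283, 177 and 235 at ZT18 and 422, 494, 368 and 502 at ZT6 (−0.96 ± 0.20, adjusted p = 0.0135). The ZT18 mice were nearly equal in Zfp46 and spread widely in Cdhr1.

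Genes that follow neuronal activity were mostly lower at ZT18, with no call. Of 43 measured immediate early and activity-induced genes, 28 had a negative value, the median was −0.13, and 9 had an unadjusted p under 0.05, 8 of them negative. In 7 all ZT18 mice were below all ZT6 mice and in 1 above (5.67% and 5.76% of all genes). Npas4, an activity-dependent factor of neurons, had 188, 252 and 131 normalized counts at ZT18 and 469, 456, 548 and 408 at ZT6 (−1.34 ± 0.36, adjusted p = 0.119). Fosb had 205, 176 and 144.1 at ZT18 and 401, 264, 487 and 265 at ZT6 (−0.98 ± 0.31, adjusted p = 0.243). The neurotrophin gene Bdnf had 1219, 1258 and 1171 at ZT18 and 1777, 1366, 1706 and 1600 at ZT6 (−0.40 ± 0.15, adjusted p = 0.379). These 3 did not overlap between the times. Fos itself had 243, 407 and 186 at ZT18 and 775, 337, 964 and 569 at ZT6, and overlapped (−1.22 ± 0.60). Arc, an effector at synapses, had 0.00 ± 0.52 with 3948, 4855 and 2869 at ZT18 and 4590, 2125, 6543 and 3245 at ZT6. ZT6 mouse TG_ALF_6_304 was the highest and TG_ALF_6_319 the lowest of the 4 in Fos and Arc.

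Sterol genes and cold-inducible RNA-binding protein also lay lower. Of 21 measured cholesterol synthesis genes, 17 had a negative value (median −0.15), none passed and 6 had an unadjusted p under 0.05, all negative. In 8 of them all ZT18 mice were below all ZT6 mice and in 1 above (5.67% and 5.76% of all genes), and the values ran from −0.37 to 0.36. Hmgcs1, which makes HMG-CoA early in the pathway, had 12001, 12055 and 11867 normalized counts at ZT18 and 17324, 15413, 14529 and 14813 at ZT6 (−0.37 ± 0.14, adjusted p = 0.423). Insig1, which retains the sterol sensor in the ER, had −0.44 ± 0.16 (adjusted p = 0.379). Cirbp, whose RNA rises when cells cool, had 1716, 1754 and 1332 at ZT18 and 1974, 2986, 2615 and 1961 at ZT6 (−0.56 ± 0.19, adjusted p = 0.296). Rbm3, the other well-known cold-inducible gene, had −0.05 ± 0.17 and overlapped. All 4 cold-inducible genes had negative values, 3 of them between −0.09 and −0.01.

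Splicing factors had 10 of 34 measured members with all ZT18 mice above all ZT6 mice and 1 below (5.76% and 5.67% of all genes), although their median was 0.05 and none passed. Srsf10 (0.35 ± 0.10, adjusted p = 0.148), Tra2a (0.59 ± 0.17, 0.177) and Sfpq (0.33 ± 0.10, 0.243) had the smallest p. Tra2a, a regulator of alternative exons, had 3348, 3080 and 3414 normalized counts at ZT18 and 2254, 2163, 2141 and 2180 at ZT6. Plin4, a lipid droplet coat gene induced by glucocorticoids, had 500, 399 and 382 at ZT18 and 136.3, 128.5, 169 and 79 at ZT6 (1.77 ± 0.56, adjusted p = 0.243). The other 24 measured glucocorticoid-induced genes ranged from −0.37 to 0.68, and the list's median was −0.002. Of all 25, none passed and 4 had an unadjusted p under 0.05 (limma), all positive. In 4 of the 25 all ZT18 mice were above all ZT6 mice and in none below (5.76% and 5.67% of all genes). Among glial genes, Opalin, of myelinating oligodendrocytes, had 659, 739 and 624 at ZT18 and 1308, 1254, 1192 and 1175 at ZT6 (−0.87 ± 0.23, adjusted p = 0.113). The 18 myelin genes as a list had a median of −0.08. All ZT18 mice were below all ZT6 mice in 5 and above in 1 (5.67% and 5.76% of all genes). Fgfr3 of astrocytes (0.46 ± 0.13, adjusted p = 0.141) had no overlap, while the 15 astrocyte genes had a median of 0.02. Of the 12 homeostatic microglia genes, 9 had a negative value (median −0.12), none passed and 2 had an unadjusted p under 0.05, both negative. In 4 of them all ZT18 mice were below all ZT6 mice and in none above (5.67% and 5.76% of all genes). Their summed level was 16115 to 16931 normalized counts at ZT18 and 17218 to 19142 at ZT6, without overlap. In TG mice on TRF these 12 genes had a median of 0.04, with 6 positive.

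**Figure D4:**
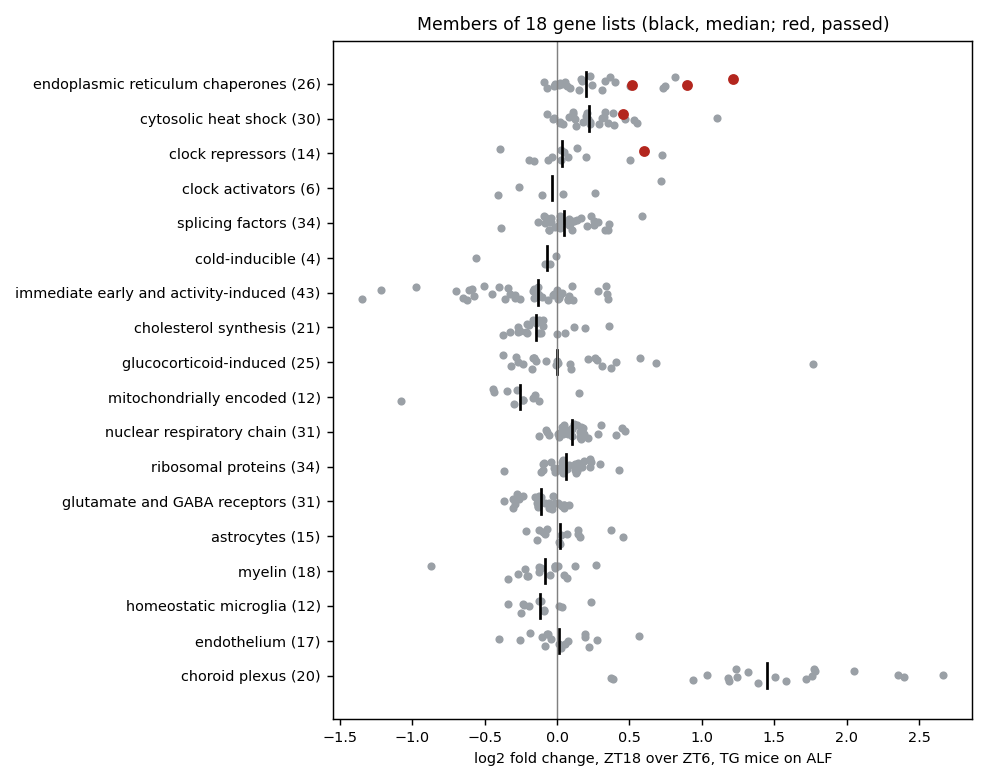
Log2 fold change at ZT18 over ZT6 in TG mice on ALF for every measured member of 18 gene lists, with the number of members in parentheses. Each dot is a gene, red dots passed the test, and black bars are medians. Of the lists plotted, choroid plexus (1.45), cytosolic heat shock (0.22) and ER chaperones (0.20) have the highest medians. ER chaperones is the ER folding list of the text. The thalamus, meninges and PAR bZIP lists (0.53, 0.41 and 0.28) are not plotted.

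Lists for energy and protein synthesis gave no call. The 31 nuclear respiratory chain genes had a median of 0.10 with 27 positive, the 34 ribosomal protein genes 0.06 with 26 positive, and the 31 proteasome genes 0.04 with 19 positive. None of these 3 lists had a member at unadjusted p under 0.05. The 12 mitochondrially encoded genes had a median of −0.26 and ran from −1.08 to 0.15. Their summed level was 1.53 to 1.62 M normalized counts at ZT18 and 1.53 to 2.09 M at ZT6. The lowest value was that of COX3, a small part of these sums. COX3 had 984, 871 and 912 normalized counts at ZT18 and 3210, 816, 945 and 5786 at ZT6, so that TG_ALF_6_310 and TG_ALF_6_332 stood apart from the other 5. The 31 glutamate and GABA receptor genes had a median of −0.11 with 24 negative, and the 25 genes of synaptic vesicle fusion −0.07 with 17 negative. The 23 genes of APP processing had a median of 0.01 and ran from −0.44 to 0.28, with none at unadjusted p under 0.05. The 23 plaque-associated microglial genes had a median of 0.001 and ran from −0.51 to 0.50, with 3 at unadjusted p under 0.05, all negative. The 6 thalamic genes were positive (median 0.53), with a summed level of 3930 to 9036 at ZT18 and 2702 to 5289 at ZT6. The 12 meningeal genes had a median of 0.41. The part of neighbouring tissue in other results was not tested beyond the covariate fits given.

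In other TG mice, on TRF, the 15 genes had the same direction. All 10 that rose on ALF were positive on TRF, 7 of them passed there, and in all 10 the ZT18 mice were above the ZT6 mice (6.68% of all genes). All 5 that fell on ALF were negative, 4 passed, and in 4 the groups did not overlap (5.81% of all genes). On TRF 161 genes passed (1.13%), with 0.75% of all genes higher and 0.379% lower. Of these calls 66.5% were higher, or 80.3% when libraries were scaled to the same total. The 11 genes that passed in both make up 73.3% of the calls on ALF and 6.83% of those on TRF. Of the genes higher on TRF, 100% had a positive value on ALF, against 7218 of all 14260 genes. In 73.8% of them the ZT18 mice on ALF lay above the ZT6 mice (5.76% of all genes). Of the 54 lower on TRF, 52 were negative on ALF (7042 of all genes). In 34 of them all ZT18 mice on ALF lay below all ZT6 mice (5.67% of all genes). Hspa5 had 14500, 13636 and 13943 normalized counts at ZT18 on TRF and 6996, 6983, 8265 and 8935 at ZT6 (0.86 ± 0.15, adjusted p = 0.00103). Banp had 1434, 1381 and 1478 at ZT18 on TRF, against 574, 861, 620 and 757 at ZT6 (1.04 ± 0.16, adjusted p = 0.000200). Of the ER folding list, 6 rose and 1, Txndc5, fell on TRF. The genes that did not pass on TRF were St3gal4 (0.31 ± 0.14, adjusted p = 0.401), Alox8 (−0.24 ± 0.17, 0.713), Dgcr8 (0.20 ± 0.10, 0.448) and Dnajb1 (0.27 ± 0.10, 0.260). Across all genes the log2 fold changes on ALF and TRF had r = 0.44, a description over genes that are not independent.

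No gene passed the test of the difference between the ALF and TRF changes (limma, smallest adjusted p = 0.999), and 193 genes had an unadjusted p under 0.05 (1.35%). Of the 15 genes, Alox8 had a difference of −0.57 (unadjusted p = 0.0185) and St3gal4 one of 0.43 (unadjusted p = 0.0354), while the other 13 had larger p. The smallest p of all belonged to Ccdc8, with 116.5, 137 and 78 normalized counts at ZT18 on ALF and 60, 48, 80 and 38 at ZT6 (0.97 ± 0.29 on ALF and −0.49 on TRF, unadjusted p of the difference 0.000647). The next were Zbtb24, Gm9776, Myom3 and Tmc7 (unadjusted p 0.00215 to 0.00309). Hence none of the changes described here was shown to be particular to ad libitum feeding. In NTG mice of both feedings, 8 of the 10 genes that rose had all 4 ZT18 mice above all 3 ZT6 mice (4.13% of all genes), the exceptions being Banp and Dgcr8. Of the 5 that fell, Pla2g4e, Zfp46 and Slc30a1 had all ZT18 mice below (3.93% of all genes).

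Values at the other times of day give the course over 4 times. In TG mice on ALF, the mean of Hspa5 was 13616 ± 2238 normalized counts at ZT0 and 7787 ± 216 at ZT6, then 8564 ± 602 at ZT12 and 14516 ± 940 at ZT18 (SD, n = 6, 4, 6 and 3). The ZT0 and ZT18 means lay within the spread at ZT0, and those of ZT6 and ZT12 were far below. Xbp1 had the same order, with 3178 ± 464, 2396 ± 75, 2586 ± 100 and 3433 ± 189 from ZT0 to ZT18. Pla2g4e ran opposite, with 198 ± 44, 406 ± 69, 334 ± 39 and 135.5 ± 24. All 10 genes that rose had their highest mean at ZT18 and their lowest at ZT6, and all 5 that fell had the reverse. This is a description, because the 15 genes were chosen by the difference between these times. ZT12 against ZT0 involves none of the 7 mice, and 316 genes passed there (2.22%). Of the 15 genes, 6 passed. Hspa5 (−0.66, adjusted p = 0.000319), Xbp1 (−0.29, 0.0440), Sdf2l1 (−0.80, 0.0239) and Pid1 (−0.30, 0.0197) were lower at ZT12, and Pla2g4e (0.77, 0.0111) and Zfp46 (0.48, 0.0199) were higher. Cry1 had another course, with 615 ± 72, 491 ± 38, 702 ± 53 and 742 ± 23 from ZT0 to ZT18, and its means at ZT12 and ZT18 were within their spread. Dbp averaged 889 ± 152, 1434 ± 308.2, 2556 ± 250.95 and 1321 ± 123 at those times. Dbp (1.53 at ZT12 against ZT0, adjusted p = 6.03e-11) and Ciart (1.64, 3.06e-11) changed between those times, although neither passed at ZT18 against ZT6. Neighbouring tissue also differed between ZT12 and ZT0. The 20 choroid plexus genes had a median log2 fold change of −1.74 there, with none positive and none past the threshold. The 12 meningeal genes had a median of −0.79, and 3 of them fell. With the choroid plexus level as covariate 299 genes passed at ZT12 against ZT0, 256 of them among the 316. The part of neighbouring tissue in the course over 4 times was not tested further. The mice of ZT0 and ZT12 carry animal numbers below those of ZT6 and ZT18. In the course over 4 times, including the highest and lowest means, number series and the difference between these pairs of times cannot be told apart.

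**Figure D5:**
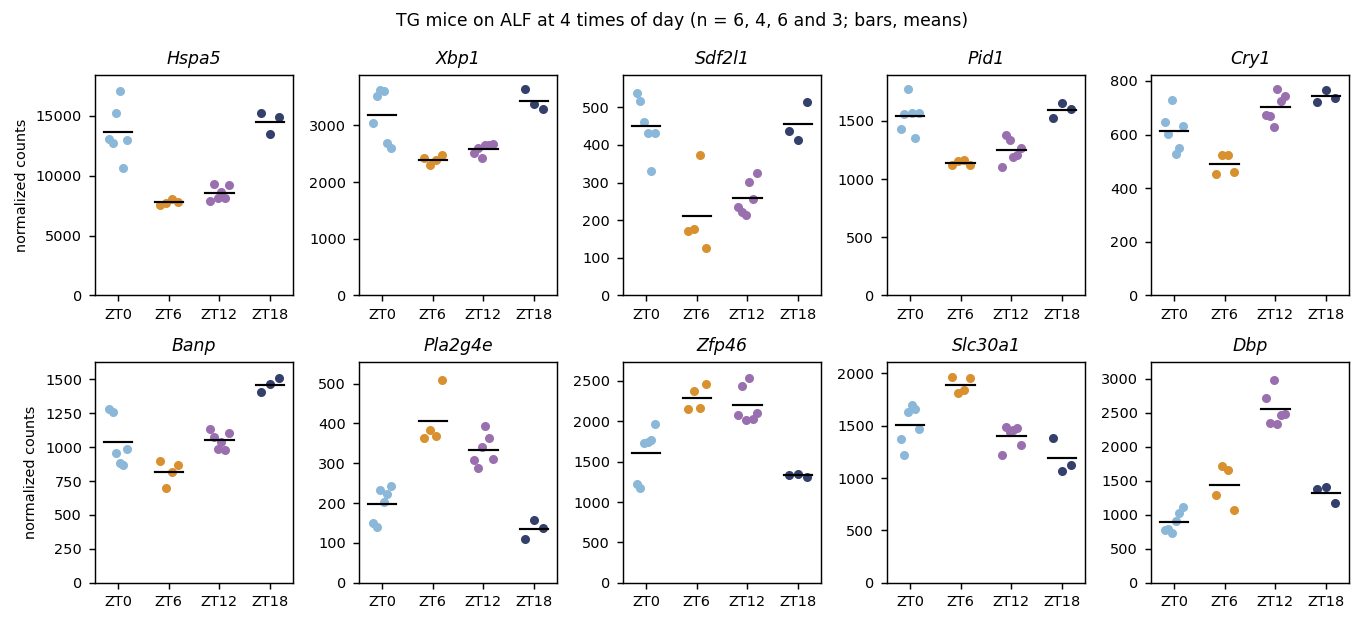
Normalized counts of 10 genes in TG mice on ALF at ZT0, ZT6, ZT12 and ZT18 (n = 6, 4, 6 and 3). Dots are mice and black bars means; Hspa5, Xbp1, Sdf2l1 and Pid1 were high at ZT18 and ZT0, Pla2g4e and Zfp46 were high at ZT6 and ZT12, and Dbp was highest at ZT12.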

How the data were processed

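Poly-A selected RNA of the hippocampus of 1 hemibrain per mouse was sequenced in paired reads of 150 bases and trimmed with Trimmomatic, per the labels' protocols. HISAT2, featureCounts, DESeq2 and the build GRCm38 appear without versions in the submitters' processing notes. Whether counting used strand is not given in the sources used here, so overlapping genes cannot be separated. The deposited values are a normalized signal per gene (read counts divided by 1 factor per library, called normalized counts here), made by the authors. Within each library the values were whole multiples of 1 step (tolerance 0.01), taken as 1 read to give depth, 27.9 to 47.1 M over the 70 libraries. The lowest gene mean was 40.9, so low genes had been removed before deposition.

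Tests used limma 3.58.1 in R 4.3.3 on log2(normalized count + 1), with a variance trend, robust variances, 16 means (1 per group and time) over 69 animals, 2-sided p and Benjamini-Hochberg adjustment over 14260 genes. Library 232R was taken as a repeat of library 232, of the same number, and averaged with it. The labels do not state that both are of 1 animal. The pseudocount slightly understates changes of low genes. The fit was tested on simulated data. Named genes were the genes past the threshold with no overlap between the 3 and 4 mice, members of the clock, cold-inducible, heat shock, ER and immediate early lists, up to 4 members of smallest p in other lists, the 5 genes of smallest p in the ALF against TRF test, Thy1, App and defining markers; genes just outside the threshold and COX3 are named besides. Some list members are counted with their lists but not reported singly here. The comparison, gene lists and motifs were chosen with earlier results of these data known, so their counts are descriptions. Alternatives changed the animals, scaling, weights, pseudocount, filter, covariates and animals left out. Gene positions, promoters and starts came from RefSeq (GRCm38.p6), in which 97.6% of the gene symbols were found.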

Additional observations from a re-analysis of the deposited data

Results flagged for a closer look

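In 89 groups of 4 or 6 mice, each gene named in the text being tested at ZT6 and those with values at 4 times also at ZT0 and ZT12, 3 held a mouse far from the others by Dixon's gap rule at 95%, where chance gives about 5% of groups. Pla2g4e had 508.4 normalized counts in TG_ALF_6_332 at ZT6, against 364 to 384 in the other 3 ZT6 mice. Alox8 had 296.4 in TG_ALF_6_319, against 393 to 412 in the other 3, still above all ZT18 mice. Thy1 had 101986 in TG_ALF_6_310, against 138071 to 144853 in the other 3 ZT6 mice.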

How the results depend on the processing

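Of 12 alternatives, 6 left the count of genes past the threshold at ZT18 against ZT6 on ALF within 1.5 times the 15 reported: 15 with a pseudocount of 10, 22 with a mean of at least 200 normalized counts, 21 with libraries scaled to the same total, 16 without trend and robust variances, 17 with the choroid plexus level as covariate and 15 with the repeat library left out. The count was 34 with only the 7 mice in the fit, 37 with only mice numbered in the 300s, 39 with quantile normalization, 352 with array weights, 33 with voom weights and 56 with the myelin level as covariate. With 1 of the 7 mice left out it ran from 2 to 28. On TRF the count of 161 was 49 with only its own mice, 788 with array weights, and 29 to 175 with a mouse left out. The test between feedings gave 0 genes in every alternative run and with each of 14 mice left out (limma, at most 672 genes at unadjusted p under 0.05). The count at ZT12 against ZT0 stayed within 1.5 times. None of the 15 genes changed sign in any fit. Hspa5 and Pla2g4e passed in all 12 alternatives and in all 7 fits with a mouse left out. Calls were lost in 4 of the 12 for Dnajb1, in 2 each for Dgcr8 and Sdf2l1, and in 1 each for Cry1, Alox8 and Cdhr1. With array weights 10 ER folding and 9 heat shock genes rose; the cause was not tested. No paired analysis was possible because the groups share no replicate numbers, each number being 1 animal. Counting error and spread between mice were not separated at 33.6 to 43.4 M reads, and some named genes rest on few counts, such as Ccdc8 with 38 to 137 normalized counts on ALF.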
